A study of Mus musculus with 24 samples.

Results

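The nuclear genes that encode subunits of the oxidative phosphorylation machinery were followed in mouse preleukemic cells by SLAM-seq, in which RNA is labelled with 4-thiouridine (4SU) and alkylated, so that labelled T positions appear as C in the reads. Members were chosen by symbol: the Nduf genes named with a, b, c, s or v and a number (complex I), Sdha to Sdhd (complex II), Uqcr genes (complex III), Cox4 to Cox8 genes (complex IV) and Atp5 genes (complex V). The rule found 83 of the 20867 genes with a 3′UTR interval in the tables, with 36 in complex I, 4 in complex II, 8 in complex III, 18 in complex IV and 17 in complex V. Ndufa4 was counted with complex I by its symbol, although its protein is now placed in complex IV. The rule used no measured value.

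All cells were homozygous for floxed alleles of both targeted genes (Tut4 fl/fl and Tut7 fl/fl). Control cells were Vav-iCre- and double knockout (cDKO) cells were Vav-iCre+, where Vav-iCre is a recombinase driven in blood cells. Tut4 and Tut7 are terminal uridylyltransferases, enzymes that add uridines to the 3′ end of RNA. Both genotypes came from c-Kit+ cells of E14.5 fetal liver and were transformed in culture by Meis1 and Hoxa9. Cells took up 2.9 µM 4SU for 12 h, and were harvested 0, 60, 180 and 540 min into a chase without it, with 3 replicates in each of the 8 groups and 24 libraries in all. The methods call the triplicates biological and say of the mouse experiments in general that replicates were made from separate animals or embryos. Which embryo each library came from is not given in the sources used here.

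Complex I takes electrons from NADH, complex II takes them from succinate, complex III passes them to cytochrome c and complex IV passes them on to oxygen. Complexes I, III and IV pump protons across the inner mitochondrial membrane, and complex V, the ATP synthase, lets them back to make ATP. Most subunits are encoded in the nucleus and imported, while the rest are made inside the mitochondrion, and several subunits of complex IV exist in forms made only in certain tissues.

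The libraries held 9552906 to 13882269 filtered reads, of which 44.2% to 51.0% lay in 3′UTR intervals. Over all intervals, 1.64% ± 0.026 (SD, n = 3) of covered T positions were read as C in control cells at 0 min, against 0.736% ± 0.169 (SD, n = 3) in cDKO cells, where replicate 3 was lowest at 0.542%. Replicate 3 was the lowest cDKO library at all 4 times, with 0.520% against 0.767% and 0.789% at 60 min, 0.386% against 0.550% and 0.569% at 180 min, and 0.162% against 0.190% and 0.209% at 540 min. Tut4 stood at 76.5 ± 9.2 CPM (read counts scaled to the same number of 3′UTR reads in each library) in control cells and 22.2 ± 6.9 in cDKO cells at 0 min, and Tut7 at 40.0 ± 5.2 and 18.7 ± 1.8 (SD, n = 3). Both were lower in cDKO cells at all 4 times (edgeR quasi-likelihood test, adjusted p at most 0.00751), but where their 3′ tags lie relative to the deleted exons is not given in the sources used here. All 10 myeloid progenitor markers were detected at 10 CPM or more, but their summed level ran from 8683 to 9056 CPM in control libraries and from 2413 to 3611 CPM in cDKO libraries at 0 min. Of these 10, 4 passed the edgeR test as lower in cDKO cells and 0 as higher, and Ctsg was the most abundant. The summed level of 9 erythroid markers ran from 0.752 to 2.12 CPM in control and from 1307 to 1986 CPM in cDKO cells, almost all of it Hbb-bt, with 7 of the 9 including Hba-a1, Alas2 and Klf1 under 1 CPM. Of the mast cell and basophil markers, 9 summed to 21.7 to 28.0 CPM in control and 164 to 322 CPM in cDKO cells, with Fcer1a, Tpsb2, Cma1 and Prss34 under 1 CPM. Neutrophil markers summed to 118 to 159 and 38.1 to 48.9 CPM, monocyte and macrophage markers to 5067 to 5471 and 4269 to 4830 CPM, and stromal and endothelial markers to 57.7 to 118 and 320 to 418 CPM, mostly Pecam1. Of 7 monocyte and macrophage markers tested, 4 were lower in cDKO cells and 1 was higher. The part of these differences between the cultures in the values below was not tested, and in bulk samples fewer cells of a type and less RNA per cell cannot be told apart.

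Labelled RNA of the subunit genes was long-lived. The library's median conversion rate over the 76 members with enough coverage (at least 100 covered T positions in every library and 50 conversions in all) was 1.26% ± 0.036 at 0 min, 1.25% ± 0.026 at 60 min, 1.16% ± 0.063 at 180 min and 0.608% ± 0.005 at 540 min in control cells (SD, n = 3). The median over all 9207 genes measured the same way went from 1.79% ± 0.022 to 0.133% ± 0.006 (SD, n = 3) in the same libraries. In cDKO cells the members went from 0.566% ± 0.124 at 0 min to 0.303% ± 0.061 at 540 min, and all genes from 0.796% ± 0.198 to 0.0977% ± 0.009 (SD, n = 3). The subunit genes thus started below the median gene and ended above it in both genotypes.

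**Figure D1:**
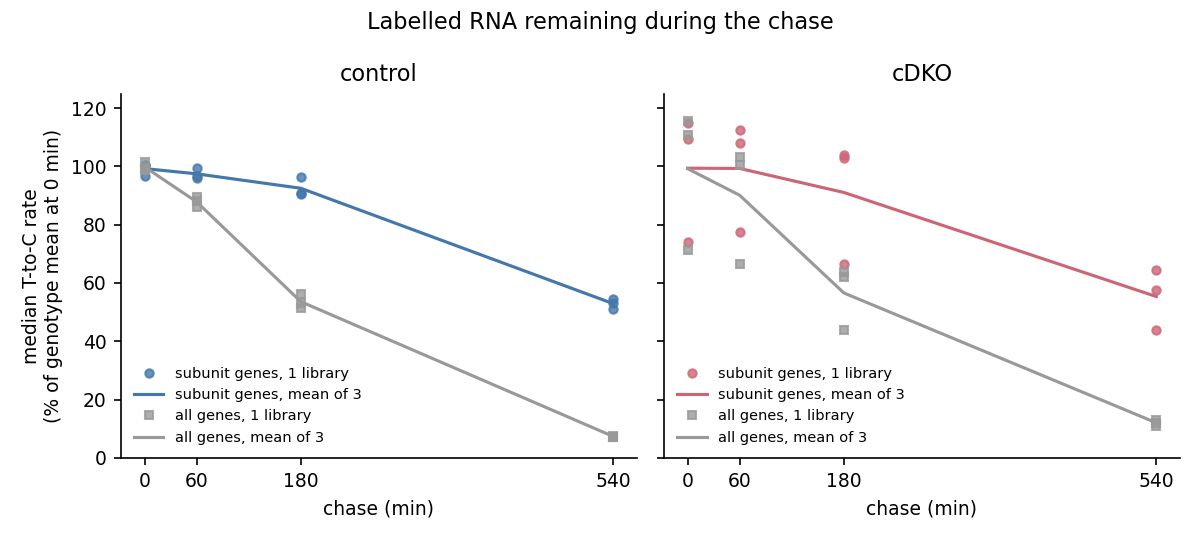
Conversion rate of each gene as a percentage of that gene's 0 min mean in the same genotype, given as the median over genes in each library, against chase time in minutes. Medians are shown for the 76 subunit genes and for all genes measured, in control and cDKO cells. Each point is a library; the subunit genes stay above 90% for 180 min on average and end at 52.9% in control and 55.3% in cDKO cells on average, while all genes end at 7.33% and 12.0%.

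As a measure that needs no model, the mean rate at 540 min was divided by the mean rate at 0 min for each gene. Of the label, 54.3% was left in the median member in control cells (interquartile range 33.7% to 67.4%), against 7.63% in the median gene. In cDKO cells 56.6% was left in the median member and 12.7% in the median gene. At 60 min the medians were 97.6% in control and 99.1% in cDKO cells for the members, and at 180 min 92.7% and 91.8%. Among all genes measured, the top quartile in control cells lay above 16.0%, and 72 of the 76 members (94.7%) were in it, with 63 in the top decile. In cDKO cells 75 members were in the top quartile and 53 in the top decile. The share left was higher in cDKO than in control cells for 55 of 76 members and for 7106 of all 9207 genes. The order of the members was similar in both genotypes, with a Spearman rho of 0.79 across the 76 members, which are not independent replicates and share their libraries.

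Rates at 540 min also hold positions that read as C without label. With the lowest rate found for 418 short-lived genes (0.0619%) subtracted, the members' median was 51.4% in control and 51.5% in cDKO cells. The median gene's was 4.28% and 5.22%.

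Among the complexes, complex IV kept the most label, with a median over its 11 measured members of 65.1% in control and 64.8% in cDKO cells. Complex V (17 members) kept 56.4% and 63.7%, and complex I (36 members) 53.1% and 52.7%. Complex II (4 members) kept 29.2% and 41.4%, and complex III (8 members) 28.9% and 48.3%. Within each complex the members were widely spread, so that these medians are descriptions of groups that overlap.

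In complex I, the 7 members of the catalytic core, which carry out the transfer of electrons, kept less label than the 29 others, with medians of 29.3% and 54.8% in control cells and 36.1% and 60.6% in cDKO cells. The core members ran from 12.1% ± 6.0 for Ndufs3 to 64.7% ± 12.6 for Ndufs8 in control cells (SD of the 3 libraries at 540 min), with Ndufs7 at 13.5% ± 6.6, Ndufs1 at 15% ± 1.2, Ndufv2 at 29.3% ± 7.3 and Ndufv1 at 37.0% ± 13.1. Ndufs8 was thus the exception in the core in control cells. In cDKO cells, where the core ran up to 61.6%, Ndufs8 was not the highest. Its cDKO rates were 0.813%, 0.776% and 0.364% at 0 min and 0.330%, 0.210% and 0.165% at 540 min. Ndufs3, Ndufs7 and Ndufs8 have only 18, 12 and 17 T positions in their intervals, and their values rest on few conversions. Among the accessory subunits, Ndufa8 kept the least at 19.3% ± 3.1, and Ndufa13, also known as Grim19, the most at 85.9% ± 28.4, over 6 T positions. The accessory subunits Ndufs6 (75.3% ± 2.2) and Ndufb5 (72.7% ± 3.3) were high with a small spread. So was Ndufa4 (74.3% ± 3.0), which is counted here only by its symbol.

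In complex II, Sdhd, a membrane anchor, lost label like the median gene. Its rates in control replicates 1, 2 and 3 were 3.27%, 3.00% and 2.91% at 0 min and 0.262%, 0.149% and 0.183% at 540 min, which left 6.46% ± 1.9. In cDKO cells its rates were 1.46%, 1.39% and 0.803% at 0 min and 0.103%, 0.108% and 0.160% at 540 min, which left 10.2% ± 2.6. In both genotypes all 3 rates at 540 min lay far below all 3 at 0 min. Coverage of Sdhd was uneven, down to 1152 covered T positions in cDKO replicate 2 at 0 min and 1342 in control replicate 2 at 540 min. The flavoprotein Sdha kept 24.9% ± 4.3 in control cells, the iron-sulfur protein Sdhb 33.4% ± 13.1 and the second anchor, Sdhc, 39.1% ± 3.1, so that all 3 kept more than Sdhd.

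In complex III, the members fell into a lower and a higher range in control cells. The core proteins Uqcrc1 (21.1% ± 13.3) and Uqcrc2 (21.6% ± 5.2), the Rieske iron-sulfur protein Uqcrfs1 (26.5% ± 1.0) and the small subunits Uqcr10 (26.7% ± 1.4) and Uqcrb (31.2% ± 5.4) made up the lower range. The hinge protein Uqcrh kept 54.8% ± 7.6 and Uqcrq 56.2% ± 1.6. Uqcr11, a small subunit, lost no measurable label in control cells. Its control rates were 1.11%, 0.910% and 0.711% at 0 min and 0.846%, 1.05% and 0.793% at 540 min, so that the libraries of both times overlapped. In cDKO cells its rates were 0.448%, 0.584% and 0.134% at 0 min and 0.271%, 0.331% and 0.301% at 540 min, and also overlapped.

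In complex IV, all 11 measured members were in the top decile of genes in control cells. Cox4i1, one of the largest nuclear-encoded subunits, kept the most. Its control rates were 0.801%, 0.838% and 0.752% at 0 min and 0.647%, 0.597% and 0.566% at 540 min, which left 75.7% ± 5.1. Cox6c (74.8% ± 4.7), Cox5b (71.8% ± 8.7), Cox8a (70.1% ± 3.8) and Cox6a1 (65.1% ± 2.4) were close behind. Cox7a2l, which is known for joining complexes III and IV into supercomplexes rather than as a subunit of free complex IV, kept the least at 35.2% ± 2.6.

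In the ATP synthase, the 5 members of the catalytic head and central stalk (Atp5a1, Atp5b, Atp5c1, Atp5d and Atp5e) had a median of 50.5% in control and 64.8% in cDKO cells, and the 12 others 64.2% and 61.8%. The catalytic subunit beta, Atp5b, had control rates of 1.528%, 1.484% and 1.496% at 0 min and 0.795%, 0.751% and 0.730% at 540 min, which left 50.5% ± 2.2. Its cDKO rates were 0.726%, 0.684% and 0.473% at 0 min and 0.428%, 0.447% and 0.346% at 540 min, which left 64.8% ± 8.6. In both genotypes the libraries of both times were apart. Atp5pb, subunit b of the peripheral stalk, kept the least in control cells at 28.8% ± 1.3, and Atp5o, which joins that stalk to the head, the most at 85.5% ± 13.4. The genes Atp5g1, Atp5g2 and Atp5g3 encode the same mature subunit c, and kept 63.6% ± 14.2, 55.4% ± 10.4 and 52.1% ± 2.4 in control cells.

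**Figure D2:**
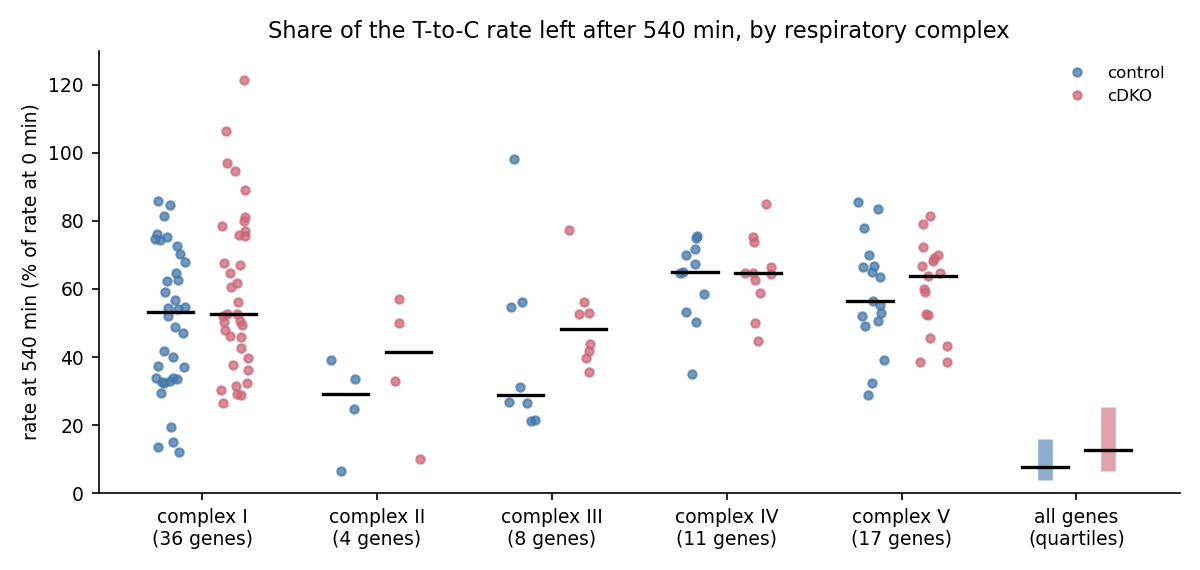
Label left at 540 min as a percentage of the 0 min rate for each of the 76 measured subunit genes, by complex I to V, in control and cDKO cells, with black lines at the medians and, at the right, bars from the lower to the upper quartile of all genes (medians 7.63% in control, 12.7% in cDKO cells). Nearly all subunit genes lie above the medians of all genes, with Sdhd the lowest at 6.46% in control cells.

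Measures that the rule did not use were set beside the share left. The members' 3′UTR intervals were short, with a median of 146 nt (41 to 2151 nt) against 790 nt for all genes, and held a median of 43 T positions (6 to 440) against 223. Across the 76 members, Spearman's rho of the control share was -0.22 with interval length, -0.21 with T positions and 0.16 with the level in control cells at 0 min, and -0.61 with the rate at 0 min, which is the denominator of the share. The 38 members with the longer intervals had a median of 52.5% and the 38 with the shorter 56.5%. Reads that could be placed at more than 1 position made up at least 20% of the reads of 12 members, up to 99.4% for Atp5j, 98.1% for Atp5g2 and 97.7% for Ndufs5, so that reads of near-identical copies cannot be told apart there. The intervals of Ndufa2, Uqcrc2, Cox6a2 and Atp5md overlap a gene on the other strand, and the strand setting of the counting is not given in the sources used here. The median of these 12 was 52.9% in control cells, against 54.3% for the other 64.

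Lists of other genes gave a scale for these medians. Cytosolic ribosomal proteins (75 genes) kept 72.7% in control and 74.4% in cDKO cells, more than the subunit genes. Proteasome subunits (37 genes) kept 19.6% and 29.0%, citric acid cycle enzymes (18 genes) 21.1% and 32.0%, and mitochondrial ribosomal proteins (77 genes) 13.6% and 19.6%. Assembly factors of the respiratory complexes, which help to build them but are not part of them, kept 12.4% and 17.3% (49 genes). Transcriptional and other regulators of respiratory genes kept 4.17% and 9.47% (14 genes), and other subunits and electron carriers outside the rule 29.5% and 35.8% (10 genes). No test was made between lists.

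Labelling before the chase was compared between genotypes as conversions at 0 min relative to the library-wide rate, so that the lower overall rate of cDKO libraries is removed. No member passed (0 of 76, edgeR quasi-likelihood test, and 0 by DESeq2), beside 0.304% of all genes, and 6 members had an unadjusted p under 0.05 (7.89%, against 7.87% of all genes). The median log2 difference of the members was 0.0090. The largest was that of Ndufs3, with rates of 2.06%, 2.13% and 2.62% in control and 0.730%, 0.458% and 0.280% in cDKO cells. Its log2 difference relative to the library was -1.06 (SE 0.36, edgeR adjusted p = 0.371), on 2145 to 3165 covered T positions per library. Its control and cDKO libraries were apart. Without the library rate removed, 75 of 76 members and 7504 of all 9207 genes were lower in cDKO cells. With each gene's 3 libraries averaged first, the median rate at 0 min in control cells was 1.29% for the members, 1.81% for all genes and 0.970% for cytosolic ribosomal proteins.

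Half-lives were fitted by a single exponential to rates divided by the 0 min mean, and genes with an SD below 0.3 at time 0 were kept. The study also asks for a mean above 0.8 at time 0. Rates divided by their own 0 min mean always meet this, so only the SD excluded genes here. Of the 76 members, 49 passed in both genotypes, and their median half-life was 682 min in control cells and 741 min in cDKO cells, against 224 and 251 min over 3712 genes. The members' medians exceed the 540 min chase, so that these half-lives are extrapolated. In control cells the median of the 76 members was 97.6% left at 60 min, 92.7% at 180 min and 54.3% at 540 min. The loss by 180 min was smaller than a single exponential with the fitted half-life would give. The fitted values therefore depend on the times used, as given at the end for fits without 540 min. The 3 replicate numbers fitted alone gave 678, 710 and 728 min for control cells, and 672, 771 and 732 min for cDKO cells, which overlap. The median log2 ratio of cDKO over control was 0.13 over the 49 members, 33 of them longer in cDKO cells. Over all genes it was 0.19, with 2549 of 3712 longer. By complex the median ratio was 0.38 in complex I (22 members), 0.30 in II (4), 0.38 in III (6), -0.18 in IV (7) and 0.018 in V (10). The 3 replicate numbers fitted alone gave 0.35, 0.24 and 0.32 over the 49 members. The ratio over these members was 0.42 without cDKO replicate 2, 0.35 without cDKO replicate 1, 0.28 without control replicate 2 and 0.060 without cDKO replicate 3. With the lowest rate of short-lived genes subtracted, as above, it was 0.040.

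The shortest control half-lives without the filter were those of Ndufs3 (196 min), Sdhd (219 min), Ndufs5 (289 min) and Uqcrc2 (307 min). Uqcr11 reached the upper bound of the fit, 10000 min, and Atp5o (4161 min), Atp5e (3157 min) and Ndufa3 (2322 min) came next, all far beyond the chase. The highest log2 ratios of cDKO over control were those of Ndufa7 (3.27), Ndufa13 (2.70) and Ndufb6 (2.28), and the lowest those of Atp5o (-2.06), Atp5e (-1.88) and Uqcr11 (-1.52). For Ndufa13 and Ndufb6 the cDKO value and for Uqcr11 the control value lay at the bound, so that these ratios have no exact size. All of these kept more label than the median member in control cells.

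The change of the rate with time was then tested between genotypes in all 24 libraries. No member differed (0 of 76, edgeR quasi-likelihood interaction test, and 0 by DESeq2), beside 0.130% of all genes, which were 12 genes that lost label more slowly in cDKO cells. Of the members, 4 had an unadjusted p under 0.05 (5.26%), against 17.2% of all genes, and the median difference in slope was 0.019 log2 per hour, against 0.070 for all genes. These 4 were 2 core proteins of complex III, Uqcrc1 (0.15 log2 per hour, SE 0.05, edgeR adjusted p = 0.151) and Uqcrc2 (0.10, SE 0.04, edgeR adjusted p = 0.172), and 2 core subunits of complex I, Ndufv1 (0.11, SE 0.04, edgeR adjusted p = 0.204) and Ndufs1 (0.10, SE 0.04, edgeR adjusted p = 0.251). A p above the threshold does not show that their decay was alike. Uqcrc1 had control rates of 1.47%, 1.32% and 1.26% at 0 min and 0.124%, 0.478% and 0.252% at 540 min, and cDKO rates of 0.525%, 0.589% and 0.325% and then 0.202%, 0.367% and 0.188%. The rate was lower at 540 min in each of the 3 same-numbered pairs of both genotypes. Taken without numbers, the cDKO libraries of both times overlapped, and the control libraries did not.

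Steady levels were high. Reads of the 83 members summed to 20758 ± 266 CPM in control and 20350 ± 1151 CPM in cDKO cells at 0 min, to 20511 ± 515 and 19794 ± 563 CPM at 60 min, to 21015 ± 313 and 20387 ± 147 CPM at 180 min, and to 20474 ± 234 and 20534 ± 222 CPM at 540 min (SD, n = 3). At 180 min all 3 cDKO libraries lay below all 3 control libraries, and at the other times the genotypes overlapped. A 3′-end library gives about a fragment per transcript, so CPM were not divided by length, and levels of different genes are compared only roughly. In control cells at 0 min the median member of complex I stood at 154 CPM, from Ndufs3 at 38.5 to the accessory subunit Ndufa10 at 408 CPM. Complex II had a median of 169 CPM, from Sdhd at 28.4 to Sdha at 276, and complex III 328 CPM, from Uqcrfs1 at 102 to Uqcrh at 521. The 18 genes of complex IV had a median of 234 CPM with Cox4i1 highest at 925, and complex V had 312 CPM, from the membrane subunit Atp5l at 18.1 to Atp5g3 at 901.

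Summed by complex, the genotypes were apart at some times and not at others. Complex I summed to 6467, 6408 and 6451 CPM in control and 5869, 6472 and 5852 CPM in cDKO cells at 0 min, which overlapped. It was lower in all cDKO libraries at 60 min (6223 to 6478 against 5674 to 6188 CPM), at 180 min (6380 to 6555 against 5872 to 6057 CPM) and, by a small margin, at 540 min (6366 to 6414 against 6175 to 6361 CPM). Complex V was lower in all cDKO libraries at 0 min (6107 to 6393 against 5739 to 6101 CPM) and 180 min (6122 to 6436 against 5884 to 6026 CPM), and overlapped at 60 and 540 min. Complex I holds Ndufb5 and Ndufc1 and complex V holds Atp5pb, 3 genes on chromosome 3 that were lower in cDKO cells at all 4 times. At 0 min the gap between the genotypes was wider for Atp5pb alone (473.8 to 575.7 CPM) than for the complex V sum (6101 to 6107 CPM). It was also wider for Atp5pb at 180 min (462 to 572 against 6026 to 6122 CPM). Beside the complex I sum, the gap of Ndufc1 alone was wider at 60 min (193 to 284 against 6188 to 6223 CPM). It was wider at 540 min too (174 to 261 against 6361 to 6366 CPM), but not at 180 min (162 to 273 against 6057 to 6380 CPM). The sums, that of all members included, were not repeated without these 3 genes.

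Complex II was higher in all cDKO libraries at all 4 times, with 644, 629 and 653 CPM in control and 746, 706 and 785 CPM in cDKO cells at 0 min, although none of its 4 genes passed the test at that time. Complex III overlapped at 0 min and was higher in all cDKO libraries at 60 min (2508 to 2617 against 2667 to 2712 CPM), 180 min (2534 to 2602 against 2688 to 2790 CPM) and 540 min (2462 to 2486 against 2670 to 2765 CPM). Complex IV overlapped at all 4 times. These sums were not tested.

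Tissue forms of complex IV were silent or nearly so. Cox7b2, Cox8b and Cox8c, forms of testis or muscle and heart, had 0 reads in all 24 libraries, which allows up to 0.426 to 0.685 CPM (3 counts per library, counting error only). Cox4i2, a form of lung and of low oxygen, had 22 reads in 9 libraries, Cox6b2, a testis form, had 46 in 10 and Cox6a2, a muscle form, had 97 in 19. Cox7a1, the other muscle form, was found in all 24 libraries with 594 reads, and reached 7.57 CPM at most. Their general counterparts Cox4i1 (925 CPM), Cox7a2 (696 CPM), Cox6a1 (655 CPM), Cox6b1 (381 CPM), Cox7b (363 CPM) and Cox8a (339 CPM) were abundant in control cells at 0 min. Of the subunit c genes, Atp5g3 stood at 901, Atp5g1 at 509 and Atp5g2 at 128 CPM, with 64.3% of Atp5g1 reads and 98.1% of Atp5g2 reads multiply mapped.

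**Figure D3:**
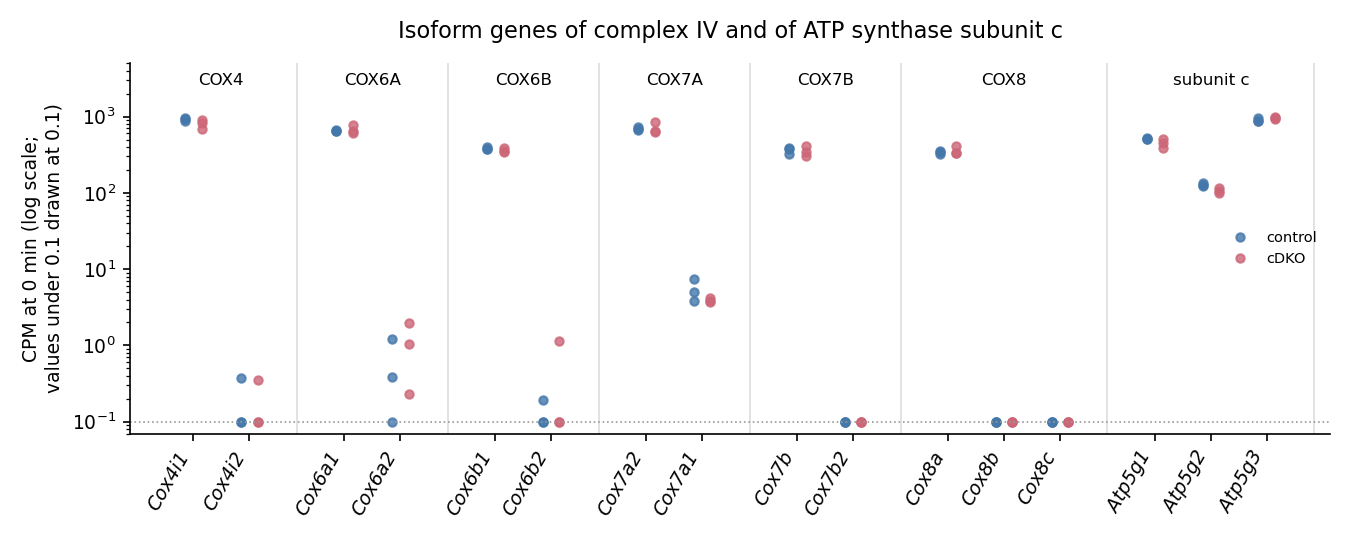
Level in CPM on a log axis in each library at 0 min for general and tissue forms of complex IV subunits and for the 3 subunit c genes, in control and cDKO cells. The general forms lie between 339 and 925 CPM on average in control cells, and the tissue forms at or below a few CPM.

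Levels were compared between genotypes at each chase time with edgeR's quasi-likelihood test, and a gene counted as changed at an adjusted p under 0.05. Most members did not pass. At 0 min 1 of the 77 members tested was higher and 3 lower in cDKO cells, beside 6.72% of all genes higher and 6.64% lower, and the members' median log2 difference was 0.0032. At 60 min 4 were higher and 10 lower, beside 9.97% and 10.2% of all genes. At 180 min 2 were higher and 9 lower, beside 9.10% and 9.78%. At 540 min 5 were higher and 4 lower, beside 8.89% and 10.4%. The median log2 difference was -0.047 at 60 min, -0.065 at 180 min and 0.017 at 540 min, against 0.0033, 0.0074 and -0.0013 for all genes. The other 6 members were filtered out for low counts and were all tissue forms of complex IV subunits.

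The counts depended on single libraries. The shares of all genes called in the fits with a library left out are not given here, so these counts have no background beside them. At 0 min 1 member passed without control replicate 2 and 1 without control replicate 3, and 12 passed (2 higher, 10 lower) without cDKO replicate 2. At 60 min 7 passed without cDKO replicate 1, 8 without control replicate 1, 5 without control replicate 2 and 5 without control replicate 3. At 180 min 5 passed without any given control library. At 540 min 5 passed without cDKO replicate 1 and 4 without any given control library.

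By complex, no member of complex I was higher at 0 or 60 min, while 2 and 6 of its 36 were lower. At 180 min 1 was higher (Ndufa12) and 6 were lower, and at 540 min 3 were higher (Ndufa10, Ndufa12 and Ndufa4) and 2 lower. In complex II only Sdhd passed, at 60 min (log2 0.75, SE 0.15, edgeR adjusted p = 0.00524). Its level was unsteady between libraries of a group, with 46.1, 11.1 and 85.25 CPM in cDKO cells at 0 min. In control cells it was 34.4, 11.2 and 37.6 CPM at 540 min. In complex III Uqcrc2 was higher at 60 min (log2 0.25) and Uqcrh at 540 min (log2 0.30). In complex IV Cox7a2l was higher at 3 times and Cox4i1 was lower at 60 min (log2 -0.38, SE 0.06, edgeR adjusted p = 0.0020). In complex V the gamma subunit Atp5c1 was higher at 60 and 540 min (log2 0.30 and 0.29), and the epsilon subunit Atp5e was lower at 180 and 540 min (log2 -0.47 and -0.65), beside Atp5k and Atp5o at 60 min, Atp5md at 180 min and Atp5pb at all times.

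**Figure D4:**
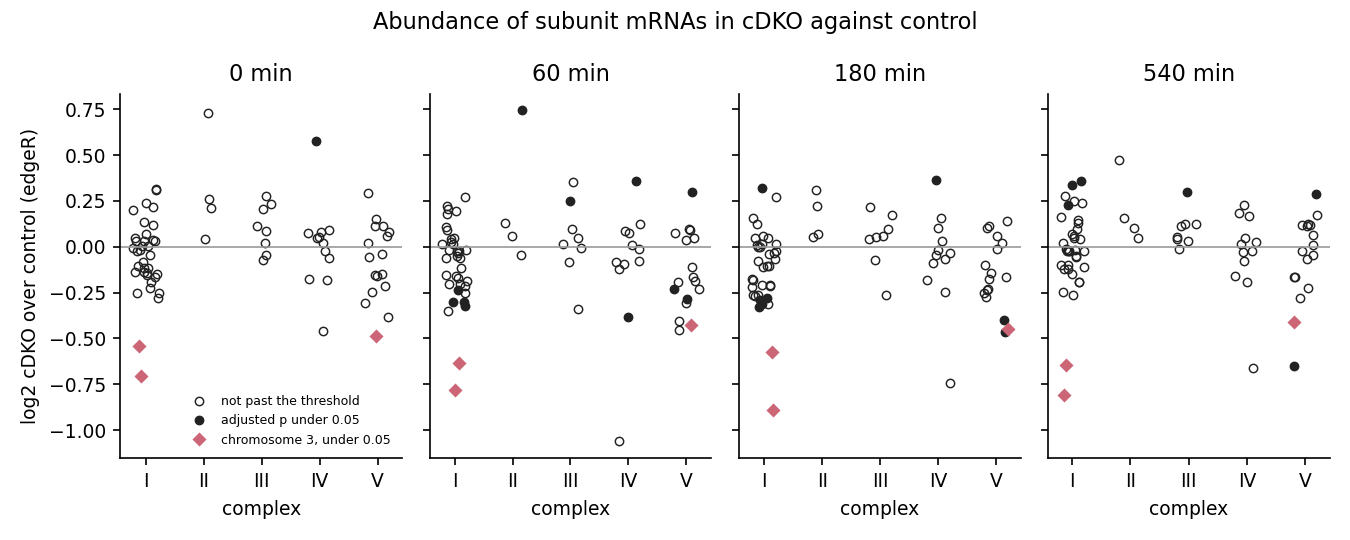
Log2 difference in level of cDKO over control cells for each tested subunit gene at 0, 60, 180 and 540 min, by complex I to V, with filled points for genes at an adjusted p under 0.05 and diamonds for those on chromosome 3. Most values lie close to 0, and Ndufc1, Ndufb5 and Atp5pb are low at every time.

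Across the 4 times 22 of the 77 members tested passed at least once and 9 at 2 or more times, beside 3284 and 1898 of 10486 genes. No gene passed in both directions, members included. The members lower at all 4 were Ndufc1, Ndufb5 and Atp5pb, and no member was higher at all 4, while 434 and 388 of 10486 genes were. The comparisons share no libraries between times, and the log2 differences of the members at 0 min had a Spearman rho of 0.59, 0.80 and 0.69 with those at 60, 180 and 540 min. These are descriptions across genes.

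Ndufc1 and Ndufb5 are accessory subunits in the membrane arm of complex I. Ndufc1 stood at 309.5, 312.1 and 302.8 CPM in control replicates 1, 2 and 3 at 0 min, and at 185.2, 206.7 and 168.7 CPM in cDKO cells. All 3 cDKO libraries lay below all control libraries. Its log2 difference was -0.70 (SE 0.10, edgeR adjusted p = 0.00280) at 0 min, -0.78 at 60 min, -0.89 at 180 min and -0.81 at 540 min. Over all times its 12 control libraries ran from 261.0 to 312.1 CPM (median 286.3) and its 12 cDKO libraries from 142.6 to 206.7 CPM (median 160.7). Its 3′UTR intervals lie at chr3:51405479-51405619 and chr3:51407336-51407352 on the minus strand of mm10.

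Ndufb5 stood at 252.8, 265.7 and 268.8 CPM in control and 160.0, 195.0 and 180.4 CPM in cDKO cells at 0 min, again without overlap. The log2 difference was -0.54 (SE 0.10, edgeR adjusted p = 0.00899), and -0.63, -0.58 and -0.64 at the later times. Over all times control libraries ran from 252.1 to 299.3 CPM and cDKO libraries from 153.9 to 202.8 CPM. Its interval is chr3:32751150-32751559 on the plus strand.

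Atp5pb, the stalk subunit b named above, stood at 575.7, 609.1 and 610.4 CPM in control and 411.2, 384.0 and 473.8 CPM in cDKO cells at 0 min, with no overlap either. The log2 difference was -0.49 (SE 0.09, edgeR adjusted p = 0.00890), and -0.43, -0.45 and -0.41 at the later times. Its interval is chr3:105942678-105942985 on the minus strand. Of 13 alternatives at 0 min, Ndufc1 passed in 13, and Ndufb5 and Atp5pb in 11 each, the exceptions being the fits without control replicate 2 and without control replicate 3. At each later time all 3 passed in 13 of 13.

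These 3 genes are the only members on chromosome 3. Of 483 genes tested on that chromosome at 0 min 185 (38.3%) were lower in cDKO cells, with a median log2 difference of -0.51, against 5.06% and a median of 0.020 on the other chromosomes. The share on chromosome 3 was 50.2% at 60 min, 49.0% at 180 min and 53.7% at 540 min. Of the 480 other genes tested there at 0 min, 37.9% were lower, with a median of -0.51. The 3 members thus moved with their chromosome, while of the 74 members on other chromosomes 1 was higher and 0 were lower at 0 min, 4 and 7 at 60 min, 2 and 6 at 180 min, and 5 and 1 at 540 min. The label left of Ndufc1 was 59.1% ± 3.9 in control and 50.3% ± 7.2 in cDKO cells, that of Ndufb5 72.7% ± 3.3 and 81.2% ± 6.6, and that of Atp5pb 28.8% ± 1.3 and 38.6% ± 2.7, and none of the 3 passed the decay test.

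The member higher at 0 min was Cox7a2l, the supercomplex factor. It stood at 156.8, 164.2 and 179.4 CPM in control and 218.3, 298.8 and 218.7 CPM in cDKO cells, without overlap. The log2 difference was 0.58 (SE 0.14, edgeR adjusted p = 0.0289), then 0.36 (edgeR adjusted p = 0.0199) at 60 min, 0.37 (edgeR adjusted p = 0.00507) at 180 min and 0.23 (edgeR adjusted p = 0.105) at 540 min. It passed in 10 of 13 alternatives at 0 min and failed without any given control library, and its value was 0.39 without cDKO replicate 2, the highest library. Of its reads 31.0% were multiply mapped. Its interval is chr17:83501917-83502602 on the minus strand.

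**Figure D5:**
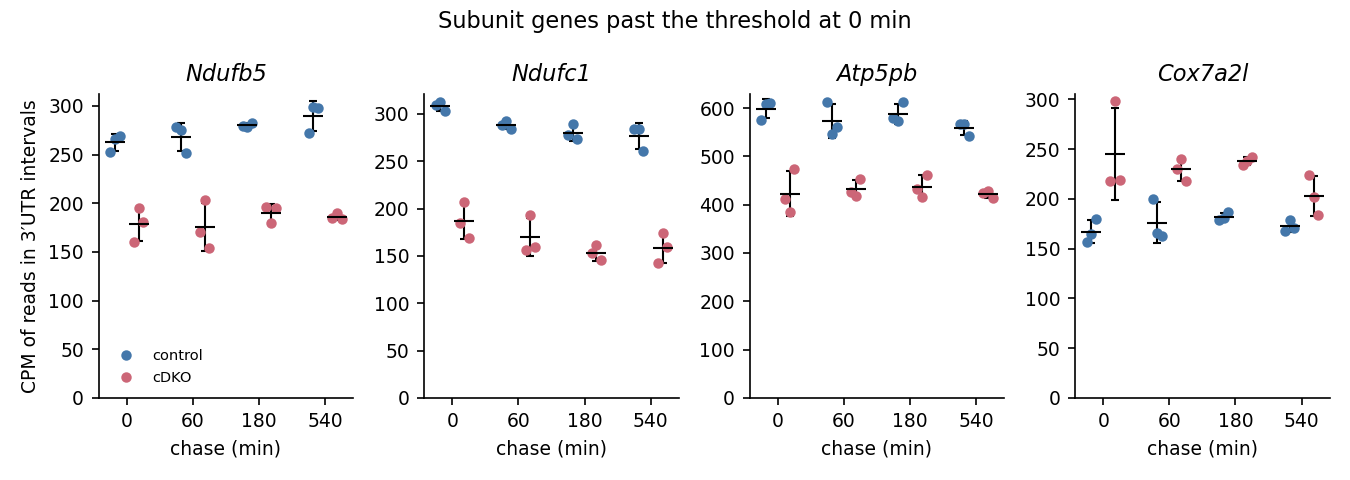
Level in CPM of Ndufc1, Ndufb5, Atp5pb and Cox7a2l in each of the 24 libraries, by chase time in minutes and genotype. For Ndufc1, Ndufb5 and Atp5pb the 12 cDKO libraries lie below the 12 control libraries, while for Cox7a2l they lie above at 0 min.

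The promoters of these 4 genes are shown because 3 of them moved together and Cox7a2l moved the other way. Each line gives 300 bases around the start of the gene from RefSeq on GRCm38.p6, 5′ to 3′ on the gene's strand, at chr3:32736813-32737112 (plus) for Ndufb5, chr3:51408906-51409205 (minus) for Ndufc1, chr3:105959214-105959513 (minus) for Atp5pb and chr17:83514284-83514583 (minus) for Cox7a2l. Capitals mark matches on either strand to the core motifs of NRF1 (GCGCATGC), YY1 (AANATGGC), GABP (CCGGAAG), ERR (AAGGTCA) and SP factors (GGGCGG), regulators known for respiratory genes.
Ndufb5: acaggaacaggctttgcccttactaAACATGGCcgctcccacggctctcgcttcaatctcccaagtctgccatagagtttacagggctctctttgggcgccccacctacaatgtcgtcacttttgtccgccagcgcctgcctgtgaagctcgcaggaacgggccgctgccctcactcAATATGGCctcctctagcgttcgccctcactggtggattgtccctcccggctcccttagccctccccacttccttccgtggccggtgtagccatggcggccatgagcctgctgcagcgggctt
Ndufc1: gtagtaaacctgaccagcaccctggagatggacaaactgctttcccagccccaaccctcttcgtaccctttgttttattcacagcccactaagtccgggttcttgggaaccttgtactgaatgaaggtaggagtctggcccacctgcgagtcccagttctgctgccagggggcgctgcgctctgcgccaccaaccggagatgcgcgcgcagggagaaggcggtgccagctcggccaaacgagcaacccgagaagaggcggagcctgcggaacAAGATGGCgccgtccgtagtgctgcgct
Atp5pb: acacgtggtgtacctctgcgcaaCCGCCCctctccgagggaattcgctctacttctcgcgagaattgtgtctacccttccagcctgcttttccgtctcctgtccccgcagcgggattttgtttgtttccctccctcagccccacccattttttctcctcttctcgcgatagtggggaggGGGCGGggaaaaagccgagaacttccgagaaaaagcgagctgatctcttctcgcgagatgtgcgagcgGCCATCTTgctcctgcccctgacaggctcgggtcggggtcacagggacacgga
Cox7a2l: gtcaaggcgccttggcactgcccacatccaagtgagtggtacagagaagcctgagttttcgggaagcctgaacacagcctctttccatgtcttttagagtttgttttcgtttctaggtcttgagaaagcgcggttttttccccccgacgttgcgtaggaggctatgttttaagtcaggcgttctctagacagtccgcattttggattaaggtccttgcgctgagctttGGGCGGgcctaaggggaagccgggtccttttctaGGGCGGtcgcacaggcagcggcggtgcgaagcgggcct

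The lines of Ndufb5, Ndufc1 and Atp5pb hold 2, 1 and 1 matches to the YY1 motif, and those of Atp5pb and Cox7a2l 2 each to the SP motif. None of the 4 holds a match to the NRF1, GABP or ERR motif. A promoter was matched for 68 of the 83 members, and the NRF1 motif was in 14.7% of them, against 2.80% of all 27025 promoters. The shares were 22.1% and 6.23% for YY1, 23.5% and 9.12% for GABP, 11.8% and 4.66% for ERR, and 41.2% and 35.9% for SP. A match of letters is a description and not a site.

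Conversion rates give half-lives directly only where levels hold steady, so levels at 540 min were set against 0 min. Chase time is also the batch in the labels, and time and batch cannot be told apart. In control cells 2 members were higher and 14 lower of 77, beside 8.06% of all genes higher and 8.18% lower (edgeR quasi-likelihood test), and the median log2 change was -0.069, against 0.0024 for all genes. The catalytic subunits Ndufs1 of complex I (log2 0.36, SE 0.08, edgeR adjusted p = 0.00728) and Sdha of complex II (log2 0.25, SE 0.06, edgeR adjusted p = 0.00781) were higher. Ndufs1 stood at 97.6, 107.7 and 103.8 CPM at 0 min and at 133.4, 131.1 and 141.3 CPM at 540 min, without overlap.

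Among the 14 lower members were Atp5g1 (log2 -0.36, SE 0.06, edgeR adjusted p = 0.000314), Ndufa5 (log2 -0.43, SE 0.08, edgeR adjusted p = 0.000913), Ndufv2 (log2 -0.39), Cox5a (log2 -0.30) and, with nearly all reads multiply mapped, Atp5g2 (log2 -0.49) and Ndufs5 (log2 -0.46). Atp5g1 stood at 503.3, 522.6 and 500.9 CPM at 0 min and 417.8, 399.3 and 403.3 CPM at 540 min. All 3 later libraries were lower. The count was 9 without 0 min replicate 2, 8 without 0 min replicate 3 and 10 without 540 min replicate 3. The shares of all genes in these fits are not given here.

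In cDKO cells no member passed (0 of 77, edgeR quasi-likelihood test, and 0 by DESeq2), beside 0.117% of all genes (12 genes, and 128 with the replicate number as a block), and 3 had an unadjusted p under 0.05 (3.90%, against 11.1%). Whether the genotypes differed in this change was tested directly, and no member passed (0 of 77, edgeR interaction test, and 0 by DESeq2), beside 0.00% of all genes. Of the members 2 had an unadjusted p under 0.05 (2.60%, against 5.23% of all genes), the core subunit Ndufv2 (difference of log2 changes 0.28, SE 0.12) and the accessory subunit Ndufs5 (0.55, SE 0.24). The changes in control cells were therefore not shown to differ from those in cDKO cells.

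Genes that build, feed or regulate the respiratory complexes were read from the same fits at 0 min, where 6.72% of all genes were higher and 6.64% lower in cDKO cells. Of 51 assembly factors tested 2 were higher and 1 lower in cDKO cells, namely Ndufaf7, a complex I assembly factor (log2 0.69, from 18.3 ± 2.8 to 29.2 ± 2.2 CPM), Fmc1, an ATP synthase assembly factor (log2 0.64, from 161 ± 22 to 248 ± 37 CPM), and Cox20, which helps build complex IV (log2 -0.54, from 116 ± 22 to 78.5 ± 3.6 CPM, SD over n = 3). Of 10 other subunits and electron carriers Slc25a4, the ADP/ATP carrier, was higher (log2 0.49) and Etfb, part of the electron transfer flavoprotein, lower (log2 -0.42). Of 19 citric acid cycle enzymes 2 were higher and 0 lower, Mdh2 (log2 0.39) and Dlst (log2 0.35). Of 16 regulators tested only Ppargc1a, a coactivator known for driving mitochondrial biogenesis, passed. It fell from 29.0 ± 2.9 CPM in control to 4.04 ± 4.02 CPM in cDKO cells (SD, n = 3; log2 -2.87, SE 0.61, edgeR adjusted p = 0.0144). Of 77 mitochondrial ribosomal proteins 5 were higher and 2 lower, the lower ones being Mrpl47 and Mrps21, both on chromosome 3. Of 79 cytosolic ribosomal proteins 1 was higher and 5 were lower. The higher one, Rpl22l1 (log2 0.66, SE 0.11, edgeR adjusted p = 0.00585), also lies on chromosome 3, as does the lower Rps3a1 (log2 -0.50), while the lower Rps3 (log2 -0.50) lies on chromosome 7. Of 37 proteasome subunits 0 were higher and 2 lower, Psmd4 and Psmb4, which also lie on chromosome 3.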

How the data were processed

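SLAM-seq tables of 24 libraries (QuantSeq FWD 3′-end libraries, single-end reads) were used. The authors ran SlamDunk 0.4.3 on mm10 (GRCm38), and each deposited table gives, per 3′UTR interval, whole-number counts of reads, conversions and covered T positions, a conversion rate as a fraction and a CPM value scaled to filtered reads. Mapping, filter and variant settings are not given in the sources used here, so that an unmasked T-to-C variant would raise a rate in all libraries. The deposited CPM served only to recover filtered read totals, and rates and CPM of 3′UTR reads were recomputed from the deposited counts.

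Symbols came from RefSeq accessions (39096 of 39419 lines). The longest of overlapping intervals of a gene was kept (29021 of 30527) and counts were summed over 20867 genes. Groups, replicate numbers and chase times came from the labels. Counts were tested with edgeR 4.0.16 (R 4.3.3, limma 3.58.1; TMM, filterByExpr, glmQLFit and glmQLFTest), with Benjamini-Hochberg adjustment over all genes tested and a threshold of 0.05, and conversions with the log T coverage as offset, times the library-wide rate for labelling. DESeq2 1.42.0 was an alternative. Half-lives were fitted by least squares (NumPy 2.4.6) between 1 and 10000 min, and Spearman's rho came from SciPy 1.17.1. The scripts were tested on simulated data. Counts of 3′-tag reads without molecular identifiers are not independent molecules, and floors cover counting error only.

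The members and gene lists were chosen with earlier results of these data known. Named members were those past the threshold at 0 min or at all 4 times, highest or lowest in CPM, half-life or half-life ratio, on chromosome 3, at or near 0 reads, with the most multiply mapped reads or the longest or shortest interval, or in a paralog set, and from other lists the genes with the largest changes at 0 min. Further members are named for their role or for passing a single test, and were chosen after their values were seen. Same-numbered cDKO libraries of 0 and 540 min deviated together from their group means (r = 0.28, 0.56 and 0.69), a pairing that comes from the data and not from the labels, and the main fits leave it out. The test of the difference in chase change and the measure of label left were added after the data were seen. No column of the tables was without a sample. The values of some single genes are not reported here.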

Additional observations from a re-analysis of the deposited data

How the results depend on the processing

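Counts of members past the threshold, by alternative, were as follows. For the level at 0 min, 4 members became 11 with all 24 libraries in one fit, and 1 to 12 with a library left out. The ranges with a library left out were 5 to 16 at 60 min, 5 to 13 at 180 min, 4 to 9 at 540 min and 8 to 15 for the chase change in control cells. For the fits with a library left out the matching shares of all genes are not given here. The replicate block gave 5 members at 540 min in place of 9, with 1 higher and 4 lower, and moved no other count of members by over 1.5 times. The share of all genes past the threshold with the block at 540 min is not given here either, so that count has no background. Replicate numbers do not pair control with cDKO libraries (correlation of deviations -0.08 to 0.10) nor control libraries of 0 and 540 min (-0.01 to 0.12). Without the library rate in the offset 75 members were labelled less in cDKO cells. The median log2 half-life ratio, 0.13, was 0.24 with no SD filter, 0.066 with a background of 0.001 subtracted, 0.040 with the rate of short-lived genes subtracted, 0.00 without the 540 min libraries, 0.26 in a log-linear fit, 0.22 with each replicate divided by its own 0 min rate (a replicate block), 0.26 with all lines of a gene summed, and 0.060 to 0.42 with a replicate left out. The median control half-life, 682 min, was 655 min with a background of 0.001 subtracted, 2311 min without the 540 min libraries and 554 min in the log-linear fit. In cDKO cells 741 min became 619 min with that background, 653 min with the rate of short-lived genes subtracted, 1416 min without 540 min, 630 min in the log-linear fit, and 724 to 881 min with a replicate left out. With a background of 0.001 subtracted, the label left after the chase was 49.8% in control cells and 47.1% in cDKO cells, and with the rate of short-lived genes subtracted it was 51.5% in cDKO cells. With the library rate in the offset, the members' median difference in slope was -0.026 in place of 0.019 log2 per hour, again with no member past the threshold. The cause of these shifts was not tested. No value for a named gene reversed: 519 kept their side of the threshold and 165 lost it. Over all genes, calls went from 1360 to 2292 for the level at 0 min with all 24 libraries, from 28 to 7504 for labelling without the library rate, from 12 to 207 with DESeq2 and 59 with the replicate block for decay (no member in either), and for the chase change in cDKO cells from 12 to 128 with the replicate block and 123 with DESeq2. Members with few T positions have the widest errors, and half-lives beyond the chase are extrapolated.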
